A study of Tursiops truncatus with 28 samples.

Results

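A short locus on scaffold NW_017844169.1, from position 35881716 to 35882230, was among the most abundant and most unequal loci in the skin transcriptomes of common bottlenose dolphins (Tursiops truncatus). It is described here together with 5 loci whose levels were high and low in the same libraries, 6 of the 24091 loci in the table. The 6 were picked from measured values: the short locus because its level differed more than 100-fold between libraries, and the others because they followed it. Their variability and co-variation are therefore a description and carry no test. The table names each locus by its interval on the NIST Tur_tru v1 assembly, with no gene name and no strand. Intervals in the table count their start from 0, so the first locus is its entry NW_017844169.1:35881715-35882230, while positions in the text count from 1. It is called the short locus here, as the shortest of the 6, and the others are called by their length in bases. The genes they belong to, their exons and their sequences were not analysed here.

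RNA was sequenced from archived skin of 28 dolphins of Barataria Bay, Louisiana, collected during health assessments, with 1 library per animal. The libraries fall into 3 sessions by date. In July 2016, 9 females were sampled. In June 2017 there were 3 males and 8 females, and in September 2017 there were 3 males and 5 females. No male was sampled in 2016, so the sexes can be compared in the 2017 libraries only, and for July 2016 the year and the month cannot be told apart. No treatment is given in the labels. Age is not given in the labels used here.

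Cetacean skin is a thick, smooth epidermis of keratinocytes with scattered melanocytes, over a dermis that passes into blubber, and its outer cells are shed and renewed throughout life. RNA from a piece of skin mixes these cells with those of vessels, nerves and blood. In such bulk samples fewer cells of a type and less RNA per cell cannot be told apart. The labelled tissue could not be checked against marker genes, since the loci carry no gene names. Levels are given as FPKM, fragments scaled to the length of the locus and to the mapped fragments of the library, so a fragment counts for more at a short locus than at a long one.

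The relative depths of the libraries lay between 0.761 and 1.48, a 1.94-fold range, and are set against the short locus further below. Their summed FPKM lay between 815690 and 1078080. Of the 24091 loci, 13192 had a mean of at least 1 FPKM and were tested, while 2900 were at 0 in all 28 libraries. All 6 loci passed this filter, and all were above 0 in 28 of 28 libraries. How many fragments stand behind a value is not given, so no counting interval can be set on it.

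The short locus had a mean of 24672 ± 42610 FPKM (SD, n = 28) and a median of 6980 FPKM. By mean it stood at place 3 among the 13192 tested loci. Its level was lowest in September 2017 female 4, at 1615 FPKM, and highest in June 2017 male 3, at 182352 FPKM, a 113-fold range. July 2016 female 2 came next below the highest, at 117990 FPKM, and without June 2017 male 3 the range was still 73.1-fold. A wide spread thus remained without that library, but the 100-fold limit by which the locus was chosen was passed only with it.

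Within each group the short locus was uneven. In July 2016 females its level ran from 2271 FPKM through a median of 8312 FPKM to 117990 FPKM. June 2017 males had 71926, 6334 and 182352 FPKM, against a lowest level of 2012, a median of 8505 and a highest of 27232 FPKM in June 2017 females. September 2017 males had 102639, 24225 and 5520 FPKM, and September 2017 females had 6157, 2335, 7158, 1615 and 6803 FPKM. Every session held both low and high libraries, and the groups overlapped, with 1 of the 3 males of each 2017 session lying among the females. Along the scale the levels left a gap between 12132 and 24225 FPKM. Above it lay 7 libraries, from 4 males and 3 females, and below it the other 21.

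The July 2016 females were sampled over several days. The 3 females of day 11 had 117990, 8312 and 27088 FPKM of the short locus. The females of days 12, 13 and 15 had 2271, 11865 and 11413 FPKM, those of day 18 had 5863 and 5963 FPKM, and the female of day 19 had 5113 FPKM. Day 11 thus held the highest level of the session and also its median level.

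The locus took a large and changing part of the table. Its share of a library's summed FPKM was between 0.155% and 17.3%, with a median of 0.784%, and the 6 loci together held between 0.172% and 20.5%. It was the most abundant locus in 4 libraries, June 2017 males 1 and 3, September 2017 male 1 and July 2016 female 2. It was among the 5 most abundant in 7 libraries and among the 10 most abundant in 10, and its lowest place was 86, in September 2017 female 4. Because FPKM divides by locus length, its part of the mapped fragments is smaller: taking its full interval as its length, it comes to at most between 0.0832% and 9.39% of a library's fragments. Such a share lowers the values of all other loci in that library by at most 0.142 on the log2 scale.

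Few loci of this abundance varied as much. Of the 12577 tested loci above 0 in every library, 115 differed more than 100-fold between the lowest and the highest library, and the median range was 2.64-fold. The tested loci nearest to the 100-fold limit had ranges of 101-fold above it and 95.9-fold below it. Only 2 of the 115, both among the 6 described here, had a mean over 1000 FPKM. Among the 112 tested loci of at least 300 bases with a mean over 1000 FPKM, the short locus was the second most variable, with an SD of 1.78 for log2(FPKM + 1), where the median of these loci was 0.244. Without the limit of 300 bases it stood at place 6 of the 116 loci with such a mean. The loci above it there were each at 0 in some libraries, so the count of 115 leaves them out. One of them, of 2197 bases, had a mean of 1880 FPKM, an SD of 3.93 and 0 in 4 libraries. By fold range the short locus stood at place 98 of the 12577 loci.

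**Figure D1:**
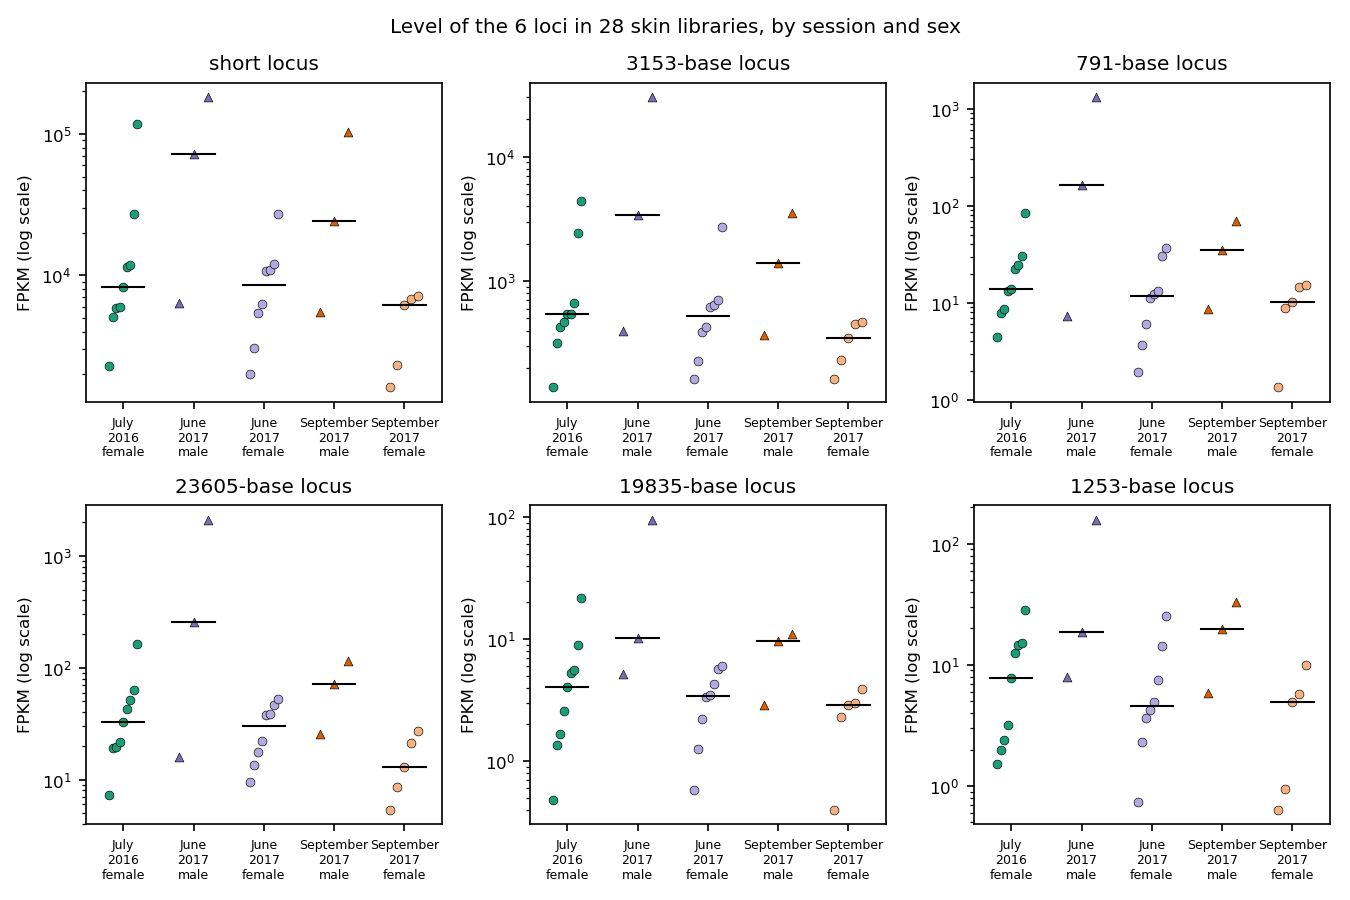
Levels of the 6 loci in FPKM on a log scale, 1 panel per locus and 1 point per library, by session and sex, with the bar at the group median. June 2017 male 3 is the highest point in every panel, and the groups overlap in each.

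The partner locus nearest to it in behaviour was 3153 bases long, at positions 330334 to 333486 of scaffold NW_017842657.1 (NW_017842657.1:330333-333486 in the table). It had a mean of 2030 ± 5640 FPKM (SD, n = 28) and a median of 472 FPKM. June 2017 males had 3394, 397 and 30178 FPKM, against a lowest level of 163, a median of 522 and a highest of 2743 FPKM in June 2017 females. The first and the last of the males lay above all 8 females of their session, and the second lay among them. September 2017 males had 3554, 1394 and 367 FPKM, and September 2017 females had 347, 232, 448, 162 and 471 FPKM. July 2016 females ran from 139.5 through 539 to 4441 FPKM.

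A locus of 791 bases lies wholly inside the 3153-base locus, at positions 331008 to 331798 (NW_017842657.1:331007-331798 in the table). Its mean was 70.6 ± 247 FPKM (SD, n = 28) and its median 13.2 FPKM. June 2017 males had 162, 7.33 and 1319 FPKM, against 1.95 to 36.5 FPKM with a median of 11.7 FPKM in June 2017 females. June 2017 male 3 stood far above the others, and the 981-fold range of this locus was 120-fold without that library. September 2017 males had 70.1, 34.7 and 8.73 FPKM, against 8.85, 15.1, 10.1, 1.35 and 14.5 FPKM in September 2017 females. July 2016 females lay between 4.47 and 83.8 FPKM, with a median of 13.9 FPKM.

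The 23605-base locus, at positions 12726830 to 12750434 of scaffold NW_017843730.1 (NW_017843730.1:12726829-12750434 in the table), had a mean of 119 ± 394 FPKM (SD, n = 28) and a median of 26.3 FPKM. June 2017 males had 256, 15.8 and 2113 FPKM, against 9.44 to 52.5 FPKM in June 2017 females, whose median was 30.02 FPKM. September 2017 males had 114, 72.3 and 25.4 FPKM, against 13.0, 8.62, 27.3, 5.36 and 21.0 FPKM in September 2017 females. Here too 2 of the 3 males of each 2017 session lay above every female of it. July 2016 females lay between 7.36 and 164 FPKM, with a median of 32.7 FPKM.

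The remaining partners were much less abundant. The 19835-base locus, at positions 7782510 to 7802344 of scaffold NW_017842414.1 (NW_017842414.1:7782509-7802344 in the table), had a mean of 8.06 ± 17.8 FPKM (SD, n = 28). It lay between 0.397 FPKM in September 2017 female 2 and 95.9 FPKM in June 2017 male 3, a 241-fold range. June 2017 males had 10.3, 5.18 and 95.9 FPKM, against 0.582 to 5.99 FPKM with a median of 3.39 FPKM in June 2017 females. September 2017 males had 9.64, 11.0 and 2.91 FPKM, against 2.97, 0.397, 2.88, 2.29 and 3.88 FPKM in September 2017 females. Again 2 males of each 2017 session stood above its females and 1 among them, and July 2016 females lay between 0.476 and 21.9 FPKM, with a median of 4.05 FPKM.

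The 1253-base locus, at positions 2548199 to 2549451 of scaffold NW_017843021.1 (NW_017843021.1:2548198-2549451 in the table), had a mean of 14.9 ± 29.5 FPKM (SD, n = 28). It lay between 0.635 FPKM in September 2017 female 2 and 159 FPKM in June 2017 male 3, a 250-fold range. June 2017 males had 18.9, 8.02 and 159 FPKM, against 0.731 to 25.6 FPKM with a median of 4.59 FPKM in June 2017 females. Here only June 2017 male 3 lay above all females of that session. September 2017 males had 19.7, 33.0 and 5.85 FPKM, against 5.77, 0.635, 4.99, 0.942 and 10.05 FPKM in September 2017 females. July 2016 females lay between 1.51 and 28.7 FPKM, with a median of 7.81 FPKM. For both these partners the highest library stood far above the rest, and without it the ranges were 55.0-fold and 51.9-fold. The 3153-base and 23605-base loci ranged 216-fold and 394-fold, and 31.8-fold and 47.8-fold without June 2017 male 3.

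Much the same libraries stood at the ends of the 6 lists, as the choice of the loci implies. June 2017 male 3 was highest at all 6 loci. July 2016 female 2 and September 2017 male 1 were among the 5 highest libraries at all 6, and June 2017 male 1 at 5 of them. At the low end, June 2017 female 6 was among the 5 lowest libraries at all 6 loci, and July 2016 female 5, September 2017 female 2 and September 2017 female 4 each at 5. The exception for September 2017 female 2 was the 791-base locus, where it ranked 11 from the top. July 2016 female 5 ranked 22 at the 1253-base locus, and September 2017 female 4 ranked 21 at the 19835-base locus.

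Across the 28 libraries, Pearson's r of log2(FPKM + 1) with the short locus was 0.966 for the 3153-base, 0.934 for the 23605-base, 0.892 for the 19835-base, 0.875 for the 791-base and 0.852 for the 1253-base locus. Spearman's rho was 0.961, 0.945, 0.909, 0.839 and 0.839 in the same order. These were the 5 highest r among the 13191 other tested loci, whose median r was -0.0457, and the next locus had r = 0.833. By rho, a locus outside the 6 ranked 4, at 0.845, above the 791-base and 1253-base loci, which ranked 5. All points share their libraries, and the 5 partners were chosen for this likeness. The partners also went with each other, with r between 0.776 and 0.953 over their 10 pairs.

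The likeness was also seen without the highest libraries. The partners were chosen over all 28 libraries, so values within parts of these libraries are a description and no separate support. Without June 2017 male 3 and July 2016 female 2, the libraries farthest from the median, r was 0.972 for the 3153-base, 0.947 for the 23605-base, 0.849 for the 19835-base, 0.836 for the 791-base and 0.787 for the 1253-base locus (n = 26). Within the 21 libraries under 20000 FPKM of the short locus, a limit set in the gap seen in its levels, r was 0.964, 0.943, 0.753, 0.832 and 0.719 in that order. Within the sessions r for the 3153-base locus was 0.973 in July 2016, 0.976 in June 2017 and 0.993 in September 2017, and for the 23605-base locus it was 0.950, 0.961 and 0.960. The lowest value of any partner within a session was 0.833, for the 1253-base locus in July 2016. In the 22 females alone r lay between 0.789 and 0.968. With session and sex taken out of both loci, r of the residuals lay between 0.784 and 0.953.

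**Figure D2:**
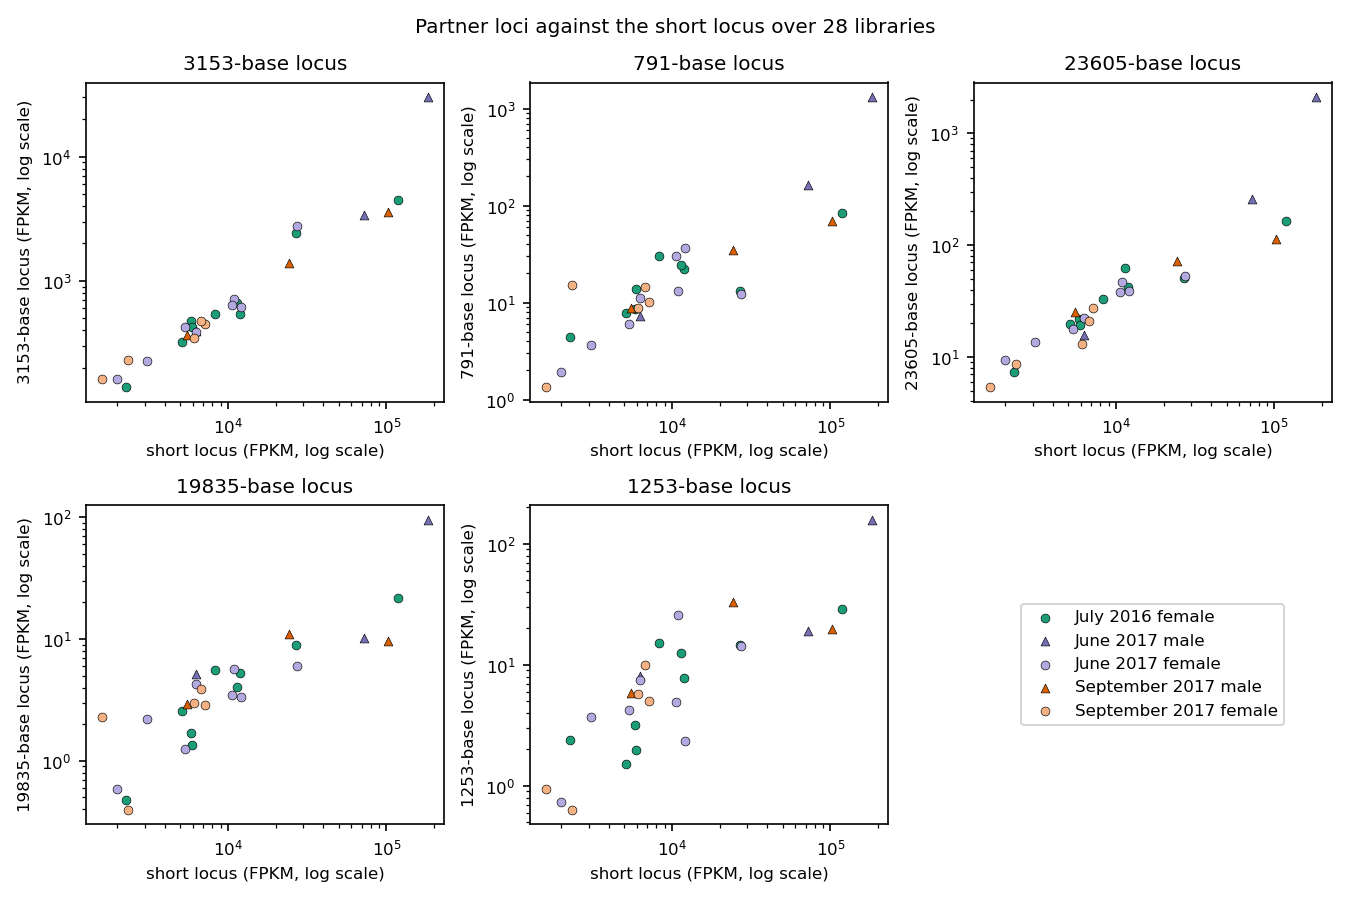
FPKM of each partner against FPKM of the short locus, both on log scales, 1 point per library, marked by session and sex. The points of all 5 partners climb from September 2017 female 4 at 1615 FPKM of the short locus to June 2017 male 3 at 182352 FPKM, with r between 0.852 and 0.966 on the log2(FPKM + 1) scale.

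The fitted slopes of the partners against the short locus are given as a description, and differences between them were not tested. On the log2(FPKM) scale the slope against the short locus was 0.946 for the 3153-base, 0.970 for the 791-base, 0.925 for the 23605-base, 0.859 for the 1253-base and 0.808 for the 19835-base locus, where 1 means a constant ratio. Without June 2017 male 3 these slopes were lower, at 0.848, 0.821, 0.789, 0.794 and 0.722. As a ratio, the 3153-base locus had between 3.46% and 16.5% of the FPKM of the short locus, with a median of 6.36%. The 23605-base locus had between 0.111% and 1.159%, and the 791-base locus between 0.0448% and 0.723%. For these 3 the highest ratio was that of June 2017 male 3. That library thus had more of these partners relative to the short locus than any other, whereas at the 19835-base and 1253-base loci its ratio ranked 8 and 12 of 28.

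The nested pair did not keep a fixed proportion. The FPKM of the 791-base locus was between 0.445% and 6.51% of that of the 3153-base locus around it, a 14.6-fold range with a median of 2.47%. The lowest ratios were 0.445% in June 2017 female 5 and 0.547% in July 2016 female 4. In those 2 libraries the 3153-base locus was high, at 2743 and 2436 FPKM, while the 791-base locus stood near its median, at 12.2 and 13.3 FPKM. The highest ratio, in September 2017 female 2, came with 15.1 FPKM of the inner and 232 FPKM of the outer locus. Fragments of overlapping loci can be shared between them in the authors' counting. The table gives no strand, so the values of this pair are uncertain in that respect.

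The 6 loci lie on 5 scaffolds, and apart from the nested pair none is next to another. Each neighbourhood was read for loci that behave alike. Among the 9 nearest tested loci on either side of the members, r with the member beside them lay between -0.475 and 0.849, with a median of 0.0247, and 2 were over 0.5. Most of these 9 thus did not follow the member, but most were also far from it, up to 220883 bases away. The 2 over 0.5 were the closest to a member. The next closest, 11106 bases from the 3153-base locus, had r = -0.189. Many closer loci were not tested, so for them likeness to the member is unknown.

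Both exceptions lay to the left of an abundant member. The first, at positions 35872201 to 35874167 of scaffold NW_017844169.1, ends 7548 bases before the short locus, with r = 0.740 and rho = 0.681. It held 168 FPKM in June 2017 male 3, 41.1 FPKM in July 2016 female 2 and 20.7 FPKM in June 2017 female 5, against a median of 1.11 FPKM. It was low in September 2017 male 1, at 2.74 FPKM, where the short locus stood at 102639 FPKM. The second, at positions 327776 to 328566 of scaffold NW_017842657.1, ends 2441 bases before the 791-base locus and has the same length of 791 bases. It was listed at 0 in 6 libraries and reached 38.1 FPKM in June 2017 male 3 and 11.2 FPKM in the next. Its r was 0.854 with the 791-base locus, 0.849 with the 3153-base locus and 0.833 with the short locus, the highest r with the last of any tested locus outside the 6. Its rho with the short locus was lower, at 0.660.

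The 23605-base locus lies inside a longer one, at positions 12724127 to 12758910 of scaffold NW_017843730.1. That locus of 34784 bases was even across the libraries, at 8.83 ± 1.89 FPKM (SD, n = 28), with r = -0.180 with the 23605-base locus. The inner locus varied 394-fold inside an outer one that ran only from 6.18 to 13.3 FPKM. The settings were otherwise sparse. Within 100000 bases of the short locus lay 14 other loci, of which 1 was tested and 6 were listed at 0 in every library. Of the 6 loci around the 19835-base locus none was tested, and of the 5 around the 23605-base locus and the 5 around the 1253-base locus 1 was tested at each. All 10 loci around the 3153-base locus, the nested one included, were tested. Of all loci in the study 54.8% were tested.

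**Figure D3:**
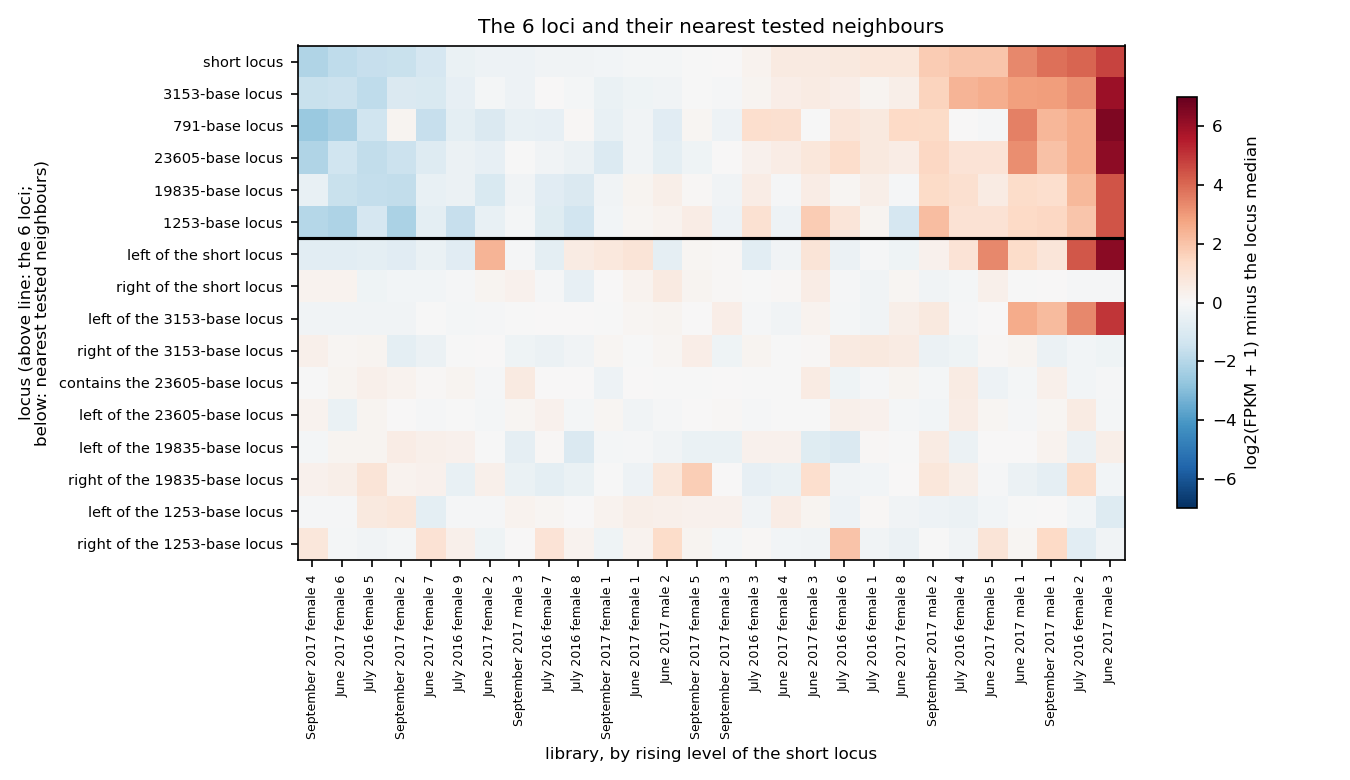
Level of the 6 loci (above the line) and of their nearest tested or containing loci (below it) as log2(FPKM + 1) minus the median of the locus, with libraries ordered by the level of the short locus. The 6 loci shade together from the low to the high end, and of the neighbours those left of the short and 3153-base loci do so in part, with r = 0.740 and r = 0.849.

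Outside the 6, the tested loci with the highest and lowest rho with the short locus were looked up. On scaffold NW_017843879.1, the locus from 10784446 to 10788327 had rho = 0.845 and r = 0.814. It lay between 0.617 and 64.4 FPKM, a 104-fold range, and was also highest in June 2017 male 3. A locus at positions 5483522 to 5493477 of scaffold NW_017844288.1 had rho = 0.810 but moved over a 2.16-fold range only, between 19.7 and 42.5 FPKM. At the other end were 2 short, abundant loci that tended to be lower where the short locus was higher. One of 430 bases, at positions 52933178 to 52933607 of scaffold NW_017842131.1, had rho = -0.833 and lay between 235 and 647 FPKM. One of 530 bases, at positions 1830734 to 1831263 of scaffold NW_017844507.1, had rho = -0.823 and lay between 262 and 582 FPKM. Apart from the 5 partners, 3 tested loci had rho over 0.8 with the short locus, and 6 had rho under -0.8.

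None of the 6 loci differed between sessions past the threshold. The test was limma on log2(FPKM + 1) with session and sex as additive terms, two-sided, with Benjamini-Hochberg adjustment over the 13192 tested loci and a threshold of 0.05. Between June 2017 and July 2016 it called 0 of the 6 loci, where 7.24% of all tested loci were called. At an unadjusted p under 0.05 it found 0 of the 6, against 22% of all tested loci. The short locus differed by -0.51 ± 0.69 on the log2 scale (SE, limma adjusted p = 0.729). The 6 loci had a median log2 difference of -0.24, and all tested loci -0.04. The signs of 4 of these differences turned when July 2016 female 2 was left out, namely those of the 3153-base, 23605-base, 19835-base and 1253-base loci, with values up to 0.11. Without that library the difference was -0.07 for the short locus and -0.13 for the 791-base locus.

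Between September 2017 and July 2016, 0 of the 6 loci were called by the same limma test, beside 1.95% of all tested loci. At an unadjusted p under 0.05 it found 1 of the 6, the 23605-base locus, against 15.4% of all tested loci. That locus had a log2 difference of -1.46 ± 0.70 (SE, unadjusted p = 0.0459, adjusted p = 0.315). The short locus had -1.36 ± 0.76 (SE, adjusted p = 0.403), and the median of the 6 was -1.25, with 0.0027 for all tested loci. Between September 2017 and June 2017, 0 of the 6 were called, beside 0.0379% of all tested loci. At an unadjusted p under 0.05 it found 0 of the 6, against 12% of all tested loci. The short locus had a log2 difference of -0.85 ± 0.68 (SE, adjusted p = 0.646). All 6 point estimates were below 0 in each session comparison, but the loci go up and down together, so they do not count as 6 separate observations. A wide spread was part of the choice of these loci. The size of their differences can therefore not be read against that of all tested loci.

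The share of the summed FPKM held by the short locus was also compared among females alone, by two-sided exact permutation tests of the mean log2 share, adjusted by Benjamini-Hochberg over 6 comparisons. It was 0.533% ± 0.30 in September 2017 females (SD, n = 5), against 2.25% ± 3.59 in July 2016 females (SD, n = 9), with an exact permutation p of 0.0989 (adjusted p = 0.198). It was 1.08% ± 0.907 in June 2017 females (SD, n = 8), against the same July 2016 females, with an exact permutation p of 0.492. September 2017 females against June 2017 females gave an exact permutation p of 0.238 (adjusted p = 0.285). These 3 comparisons share their groups in pairs. None passed. In July 2016 females the median share was 1.02%, with 11.6% in July 2016 female 2.

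Between the sexes the estimates were larger and all on the male side, but none passed the adjustment over all loci. By the same limma test 0 of the 6 loci were called between males and females, beside 0.091% of all tested loci. At an unadjusted p under 0.05 it found 6 of the 6, against 4.85% of all tested loci, with unadjusted p between 0.000652 and 0.00256. Since the loci were chosen for going together, these are not 6 separate observations. The short locus had a median of 48075 FPKM in the 6 males, with a range of 5520 to 182352 FPKM, against a median of 6309 FPKM in the 13 females of 2017, with a range of 1615 to 27232 FPKM. The fitted male minus female difference came to 2.56 ± 0.73 on the log2 scale (SE, limma adjusted p = 0.445). The ranges of the sexes overlapped.

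The partners gave like estimates. The male minus female log2 difference was 2.62 ± 0.76 for the 791-base, 2.58 ± 0.67 for the 23605-base, 2.40 ± 0.72 for the 3153-base, 2.13 ± 0.62 for the 1253-base and 1.82 ± 0.51 for the 19835-base locus (SE, limma adjusted p between 0.359 and 0.554). The median of the 6 was 2.48, with -0.03 for all tested loci. The short locus was chosen for its wide spread and the others for following it. The size of these differences can therefore not be read against that of all tested loci. Whether any was called depended on 1 library. Without June 2017 male 2, whose levels lay among the females, the 23605-base locus passed, with a log2 difference of 3.35 and a limma adjusted p of 0.0139. Without June 2017 male 3 all 6 differences were smaller, at 2.09 for the short locus, 1.74 for the 23605-base, 1.69 for the 791-base, 1.615 for the 3153-base, 1.56 for the 1253-base and 1.21 for the 19835-base locus. The change between September and June 2017 did not differ between males and females at any of the 6 loci past the threshold (limma adjusted p = 1), where 0% of all tested loci were called, and 3.69% had an unadjusted p under 0.05, against 0 of the 6.

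**Figure D4:**
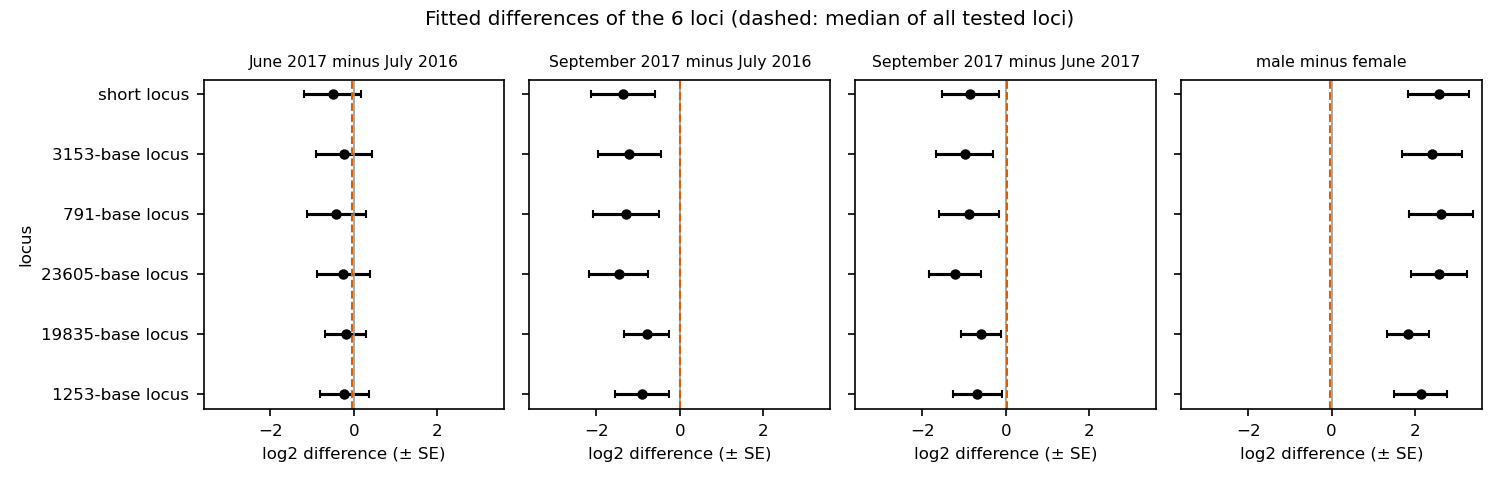
Fitted log2 difference with its SE for each of the 6 loci in 4 comparisons (limma on log2(FPKM + 1), session and sex as additive terms), with the median over all tested loci as a dashed line. The session estimates lie below 0 with SEs of 0.48 to 0.79, and the male minus female estimates lie between 1.82 and 2.62, with adjusted p over 0.05 for all.

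The share of the short locus in the 2017 libraries averaged 6.67% of the summed FPKM in males, with an SD of 6.63 over 6 libraries, and 0.870% in females, with an SD of 0.766 over 13. The difference of the mean log2 share was 2.46, with a two-sided exact permutation p of 0.00789 (adjusted p = 0.0473 over the 6 comparisons). That test exchanged the sexes over both 2017 sessions. With the sexes exchanged within each session only, a test added after the data were seen, the mean of the differences within the 2 sessions was 2.55, with an exact permutation p of 0.00671 (adjusted p = 0.0403). Within June 2017 alone the difference was 2.52 with an exact permutation p of 0.0606 (adjusted p = 0.182), where the smallest possible p is 0.0121. Within September 2017 alone it was 2.59 with an exact permutation p of 0.143 (adjusted p = 0.214), where the smallest possible p is 0.0357. The pooled call was a narrow one. It was lost when any of 16 of the 19 libraries was left out, with adjusted p up to 0.150, and when ranks took the place of log2 shares, with an exact permutation adjusted p of 0.187.

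The level of the short locus was set against 5 measures of the libraries, by Pearson's r and Spearman's rho over 28 libraries with two-sided permutation p from 100000 resamples, adjusted over the 5. The permutations exchanged libraries freely over sessions and sexes. The 5 measures come from the same libraries and can go together, so they do not count as 5 separate relations. Libraries with much of the locus had a lower mitochondrial share. The 12 loci of 500 bases or more on the mitochondrial sequence were summed, and their share of the FPKM outside the 6 loci gave r = -0.631 (permutation p = 3e-04, adjusted p = 0.0015) and rho = -0.749 (permutation p = 3e-05, adjusted p = 0.00015). Without the 2 farthest libraries r was -0.583, and within July 2016, June 2017 and September 2017 it was -0.754, -0.637 and -0.479. Within the 21 libraries under 20000 FPKM r was -0.789, and within the 7 above it was -0.586. The mitochondrial share was 1.44% in July 2016 female 2 and 5.04% in June 2017 female 7, the lowest and the highest.

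By group, the mitochondrial share was 2.22% ± 0.406 in June 2017 males (SD, n = 3), against 3.30% ± 1.05 in June 2017 females (SD, n = 8). In September 2017 males it was 3.58% ± 0.944 (SD, n = 3), against 3.36% ± 0.939 in females of that session (SD, n = 5). July 2016 females had 3.09% ± 1.26 (SD, n = 9). It was thus lower on average in males than in females in June 2017 and not in September 2017. With this share as a covariate, an alternative added after the data were seen, the male minus female log2 difference of the short locus was 2.12 (limma adjusted p = 0.562). The part of the mitochondrial share in the levels of the 6 loci was not tested further.

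Depth ran the same way. Relative depth gave r = -0.490 (permutation p = 0.00826, adjusted p = 0.0138) and rho = -0.571 (adjusted p = 0.00457). This relation was uneven over the sessions, with r = -0.899 in July 2016, -0.509 in June 2017 and -0.058 in September 2017, and without the 2 farthest libraries r was -0.347. The summed FPKM outside the 6 loci gave r = -0.531 (permutation adjusted p = 0.00932), with -0.274, -0.617 and -0.711 within the sessions. Part of this negative sign is built in, since fragments of the short locus lower the FPKM of all others in a library. That lowering was at most 0.142 on the log2 scale, in June 2017 male 3, and the permutation does not allow for it. Within the 21 libraries under 20000 FPKM of the short locus r was -0.671. The number of other loci above 0 gave r = -0.376 (permutation adjusted p = 0.0611) and rho = -0.479 (permutation adjusted p = 0.0131). Its r was -0.708 in July 2016, -0.223 in June 2017 and -0.167 in September 2017. The share of the 10 most abundant other loci gave r = -0.257 (permutation adjusted p = 0.184). The part of depth in the levels of the 6 loci was not tested. Library or sequencing batches are not named in the labels.

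**Figure D5:**
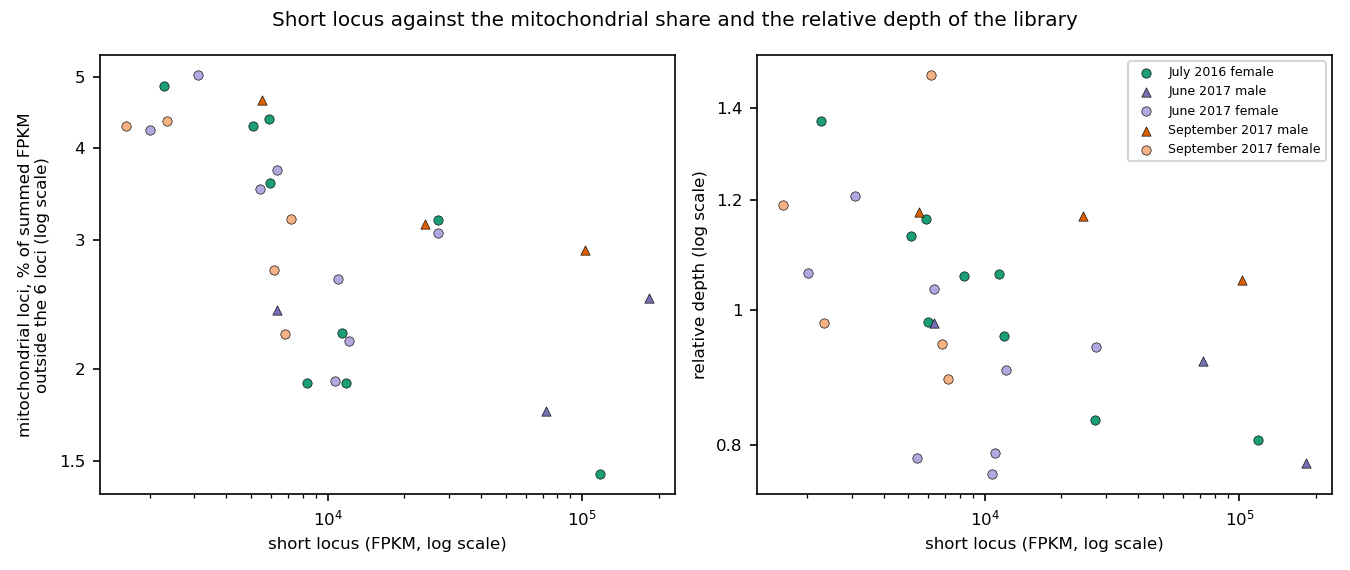
Share of 12 mitochondrial loci in the summed FPKM outside the 6 loci (left) and relative depth (right), on log scales, against FPKM of the short locus on a log scale, 1 point per library, marked by session and sex. The mitochondrial share tends to be lower where the level of the locus is higher, with r = -0.631, and so, more loosely, does relative depth, with r = -0.490.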

How the data were processed

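Directional libraries were made from skin RNA, per the labels' protocols. Cufflinks 2.2.1, TopHat2 2.1.1, Bowtie, Trimmomatic 0.33 and FastQC 0.1 are the tools listed, per the submitters' processing notes. For strand and annotation, the settings were not given in the sources used here. What the authors deposited is 1 table of values per locus and library. Its unit is not written there and was taken as FPKM, from Cufflinks and from the deposited values, which are not whole numbers. Columns were matched to samples by title, session by date, and sex by label. The title of July 2016 female 6 carries another year than its date, and the date was used.

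The 6 loci, the named neighbours and the tests were chosen with earlier results of these data known. Other loci were named by a rule: those overlapping a member, the nearest tested locus on each side, and the 2 highest and 2 lowest rho. The gene table at hand is of another assembly, and 0 locus names matched it. Tested loci, with 1 FPKM or more on average, were taken as log2(FPKM + 1), so differences of low loci are understated, and fitted with limma 3.58.1 in R 4.3.3 (trend and robust settings, 24 residual degrees of freedom). Overlap with another locus affects 26.6% of tested loci (3507). Relative depth came from ratios of low values at 4754 loci, and agreed within 0.05 log2 with 99.7% of 378 pairs of libraries. Tests and correlations used scipy 1.17.1, and figures matplotlib 3.10.9. The alternatives were a pseudocount of 0.1, no filter, another scaling, rescaling without the 6 loci, ranks, and leaving out each library. Sessions were also fitted in females alone, and the sexes in the 2017 libraries alone.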

Additional observations from a re-analysis of the deposited data

Results flagged for a closer look

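Among the levels of the 6 loci in each group of 4 to 10 libraries, 1 library stood apart from its group: the 791-base locus in September 2017 females was lowest in September 2017 female 4, at 1.35 FPKM, against 8.85 to 15.1 FPKM in the other 4. This compared the gap to the next library with the range of the group on the log2(FPKM + 1) scale, in 18 groups, and chance gives such a gap in about 1 of 20 groups.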

How the results depend on the processing

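No paired analysis was possible because each animal gave 1 library. No session comparison called any of the 6 loci under any alternative. Between males and females the count of these was 0 to 1 with each library left out in turn (1 without June 2017 male 2) and 0 under the 7 other alternatives. The fit without July 2016 female 6, whose title year differs, is in both sets. Over all tested loci the count for September 2017 minus July 2016 was 154 when rescaled without the 6 loci, 160 with females alone, and 145 to 292 with a library left out. For September 2017 minus June 2017 it was 8 with median-of-ratios scaling, 3 when rescaled without the 6 loci, 0 with females alone, 16 without the library whose title year differs, and 0 to 26 with a library left out. Between males and females it was 5 when rescaled without the 6 loci and 6 to 15 with a library left out. The June 2017 minus July 2016 difference lay between -0.52 and 0.11 for the 3153-base, -0.50 and 0.033 for the 23605-base, -0.41 and 0.080 for the 19835-base and -0.47 and 0.018 for the 1253-base locus with a library left out. The sign turned without July 2016 female 2 at all 4, without July 2016 female 4 at the 3153-base (0.0057) and without June 2017 female 6 at the 1253-base locus (0.010). After session and sex, r with the short locus was 0.953, 0.814, 0.905, 0.841 and 0.784 for the 3153-, 791-, 23605-, 19835- and 1253-base loci, and without the 2 farthest libraries 0.849 for the 19835-base and 0.787 for the 1253-base locus. The male minus female difference of the share in 2017 was 8.96 in mean rank (exact permutation adjusted p = 0.187) and 1.996 to 2.95 on the log2 scale with a library left out. The r with the number of other loci above 0 was -0.479 on ranks and -0.434 to -0.330 with a library left out. Fragment counts are not given, so the precision of the low values is unknown. The causes were not tested.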
